A study of Mus musculus with 2 samples.

Results

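The 10 Kruppel-like factor (Klf) genes described here were those listed by name, and their probe sets were all those annotated to exactly 1 of these genes. They held 36 probe sets of the 45101 on the array and 10 of the 18194 genes with a single-gene probe set. A probe set is a group of short oligonucleotides for 1 transcript. Total RNA from CD8+ and CD8- dendritic cells (DCs) of mouse spleen had been hybridised to Affymetrix arrays, 1 array per population. Both populations came from C57BL/6 mice that carried B16 melanoma cells making Flt3 ligand, a growth factor that expands DCs. Between 10 and 12 days after the tumour cells were injected, the splenic DCs were enriched on magnetic columns, then sorted as CD3-B220-CD11c+ cells with or without CD8a. Neither population was stimulated, and the labels do not give the number of mice behind an array. Both groups therefore share the tumour and the Flt3 ligand, and neither represents DCs of an untreated spleen.

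Kruppel-like factors are transcription factors with a set of C2H2 zinc fingers at the C-terminal end, which bind CACCC boxes and GC-rich boxes in DNA. The fingers are much alike among members, while the N-terminal parts differ and recruit either co-activators or co-repressors. Klf2, Klf4, Klf6 and Klf7 act as activators or in both directions, Klf3 and Klf12 bind the co-repressor CtBP, and Klf9, Klf10, Klf11 and Klf13 bind the co-repressor Sin3. In leukocytes, Klf2 is known for quiescence and trafficking of T cells, and Klf4 for monocyte differentiation and for functions of the CD11b+ DC lineage.

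Values are RMA signals on the log2 scale, and each difference is the CD8+ value less the CD8- value. No value has a replicate, so no test was made, and what mice, sorts and hybridisations add to a difference is unknown. A difference is called by its size alone, at 2-fold. Values under a log2 signal of 3.85, the median of all values, are treated as near background. A gene counts as measured where its brighter value reaches this floor, and its brightest probe set stands for it. A fold is written as "at least" where the dimmer value lies under the floor. The median signal was 3.86 on the CD8+ array and 3.83 on the CD8- array. In 5183 genes, several probe sets lay above the floor. The CD8+ minus CD8- difference varied between the probe sets of such a gene with a pooled SD of 0.30. For the 6 Klf genes of that kind this SD was 0.21. This spread lies between probe sets on the same arrays. It does not measure variation between animals, sorts or hybridisations.

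Klf4 was the Klf gene that differed most between the populations, with 10.9-fold higher signal in CD8- DCs, and Klf13 followed at 2.31-fold in the same direction. The other 8 genes lay under 2-fold, and none was 2-fold higher in CD8+ DCs. Among all 11404 measured genes, the share past 2-fold was 5.97% on the CD8- side and 3.55% on the CD8+ side. All 10 Klf genes were measured, against 62.7% of the 18194 genes with a single-gene probe set. The 10 genes were listed with earlier results of these data known. Of the 36 Klf probe sets, 25 reached the floor. Past 2-fold were 4 probe sets, 2 of Klf4 and 2 of Klf13. The median difference over the 10 genes was -0.18, and -0.08 over the 9 without Klf4, against 0.03 over all measured genes.

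The promoters of Klf4 and Klf13 are shown because these were the members past 2-fold, and that of Klf2 because it held a match to the MEF2 site, which is bound by factors that act upstream of Klf2. The sequences are the 250 bases before the transcription start, from RefSeq on GRCm38.p6, where 9 of the 10 genes matched an entry. Klf10 did not match. Capitals mark matches, on either strand, to the CACCC box (CACCC), the GC box (GGGCGG) or the MEF2 site. The Klf4 window is chr4:55532476-55532725 on the minus strand, the Klf13 window chr7:63938916-63939165 on the minus strand and the Klf2 window chr8:72318812-72319061 on the plus strand.
Klf4: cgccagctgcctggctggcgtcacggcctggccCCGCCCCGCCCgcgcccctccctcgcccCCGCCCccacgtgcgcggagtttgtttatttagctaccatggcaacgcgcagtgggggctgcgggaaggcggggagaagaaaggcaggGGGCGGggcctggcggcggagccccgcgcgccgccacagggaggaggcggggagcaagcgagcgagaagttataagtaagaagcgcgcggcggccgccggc
Klf13: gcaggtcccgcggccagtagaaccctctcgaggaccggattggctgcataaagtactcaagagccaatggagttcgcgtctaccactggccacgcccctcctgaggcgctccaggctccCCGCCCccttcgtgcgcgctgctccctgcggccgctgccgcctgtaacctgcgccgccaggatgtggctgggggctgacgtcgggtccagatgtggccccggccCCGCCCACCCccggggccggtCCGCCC
Klf2: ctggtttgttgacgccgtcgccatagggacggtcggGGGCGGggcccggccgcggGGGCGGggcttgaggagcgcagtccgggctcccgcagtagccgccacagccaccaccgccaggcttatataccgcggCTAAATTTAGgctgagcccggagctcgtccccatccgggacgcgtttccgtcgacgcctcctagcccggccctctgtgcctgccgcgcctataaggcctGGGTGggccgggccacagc

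The Klf4 window held 4 GC boxes and no CACCC box, the Klf13 window 3 GC boxes and 1 CACCC box, and the Klf2 window 2 GC boxes, 1 CACCC box and 1 MEF2 match. In Klf13, the CACCC box and a GC box share 1 base. In Klf4, 2 GC boxes share 1 base. Of the 9 Klf promoters, 7 held a GC box, 6 a CACCC box and 1 the MEF2 site. The shares among all 32851 promoter entries of this length were 32.7% for the GC box, 52.0% for the CACCC box and 2.92% for the MEF2 site. The GC content of the windows was 74.0% for Klf4, 71.6% for Klf13 and 71.2% for Klf2, and it ranged from 48.0% (Klf12) to 78.4% (Klf3) over the 9 genes. A match describes the letters in the window and not binding, and the arrays hold no measurement of binding.

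**Figure D1:**
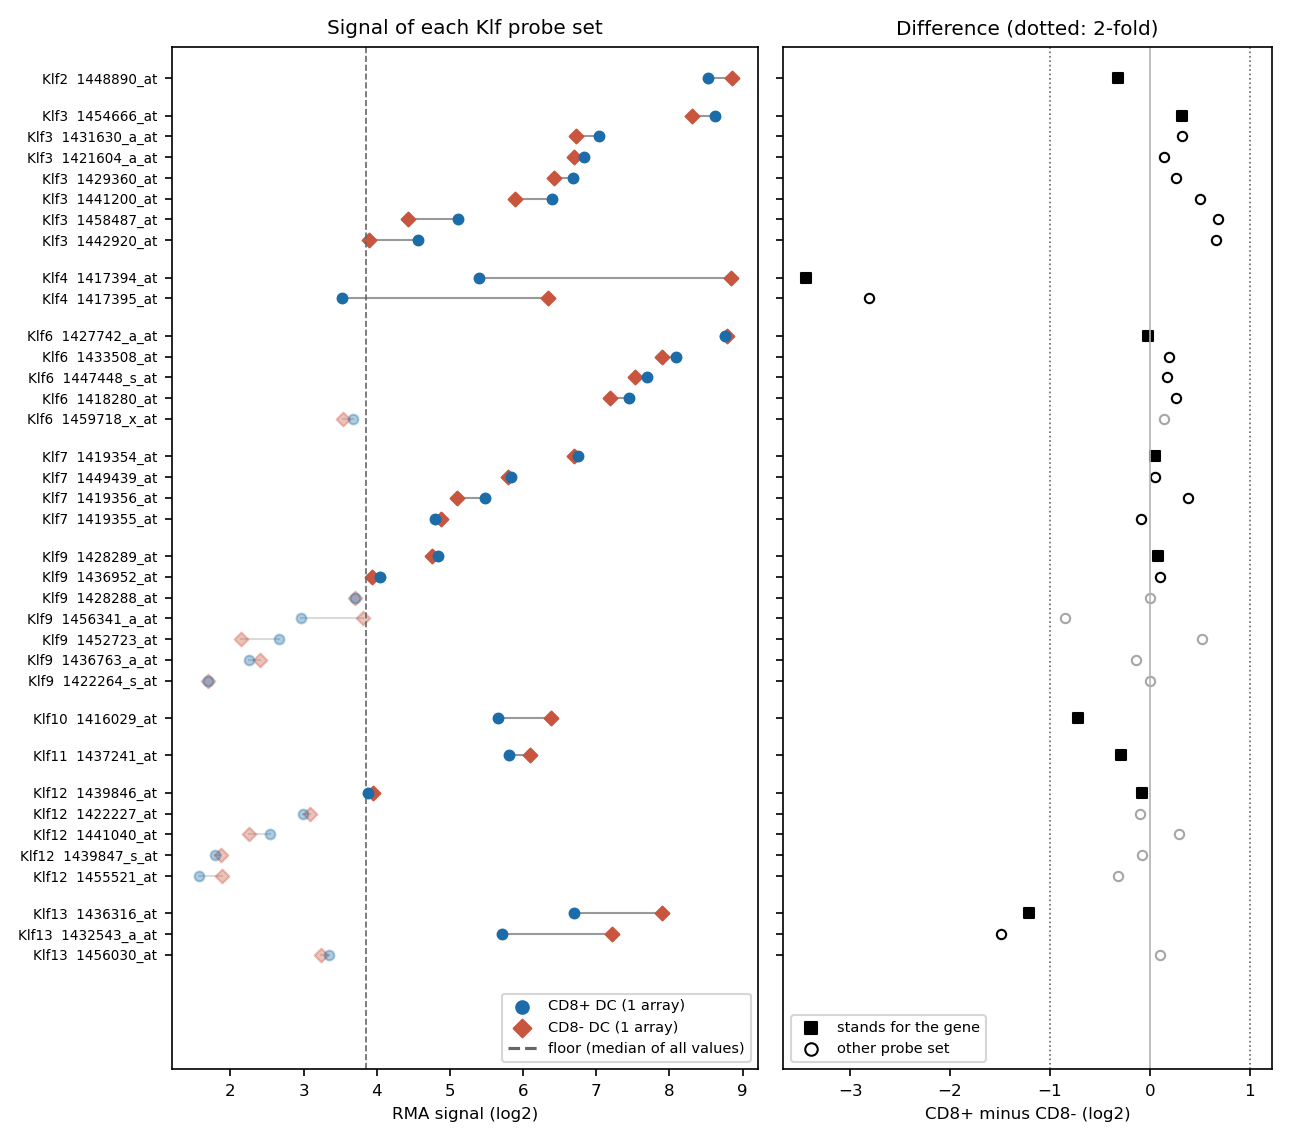
Signal of all 36 probe sets of the 10 Klf genes on the 2 arrays (left, log2 RMA signal; circles CD8+ DC, diamonds CD8- DC, dashed line the floor of 3.85) and the difference CD8+ minus CD8- of each (right, log2; dotted lines 2-fold; filled squares the probe set that stands for the gene). Probe sets under the floor on both arrays are pale. Both Klf4 probe sets and 2 of the 3 Klf13 probe sets lie beyond the 2-fold line on the CD8- side, and the 7 Klf3 probe sets lie between 0.14 and 0.68.

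Among the activators and dual regulators, the Klf4 signal was 5.40 in CD8+ DCs and 8.85 in CD8- DCs by probe set 1417394_at. The second probe set, 1417395_at, read 3.53 and 6.34, so that its CD8+ value lay under the floor and its fold was at least 5.65. Both probe sets were thus bright in CD8- DCs and low in CD8+ DCs, with differences of -3.45 and -2.82. They were designed from the same source sequence and are not independent of each other. By 1417394_at, the CD8+ signal of Klf4 was 9.18% of the CD8- signal. Among the 11404 measured genes, 0.807% had a larger absolute difference, and Klf4 ranked 89 in order of the difference in favour of CD8- DCs. In such sorted pools, fewer cells with the transcript and less transcript per cell cannot be told apart.

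Markers of other cells were read beside Klf4, since monocytes and macrophages also express it. Of the 8 monocyte and macrophage markers, 7 had a probe set and all 7 were measured. At 2-fold, 3 were higher in CD8- DCs, namely the M-CSF receptor gene Csf1r (6.40 and 10.56 in CD8+ and CD8- DCs), the F4/80 gene Adgre1 (4.63 and 8.22) and the complement gene C1qa (2.84, under the floor, and 5.30). In the other direction, the endotoxin co-receptor gene Cd14 was 2.63-fold higher in CD8+ DCs (7.50 and 6.10). Among all measured genes, 5.97% were past 2-fold on the CD8- side and 3.55% on the CD8+ side. The Fc receptor gene Fcgr1 (4.36 and 4.26), the adhesion molecule gene Vcam1 (5.52 and 4.66) and the lysozyme gene Lyz2 (10.69 and 10.11) were under 2-fold by their brightest probe sets. Their probe sets disagreed in part: those of Fcgr1 differed by -1.65 and 0.10, and the 3 of Vcam1 by 0.42 to 2.49. Ly6c2 had no single-gene probe set. The summed linear signal of the 7 was 2020 in CD8+ and 3068 in CD8- DCs. Lyz2 weighs most in the CD8+ sum and Csf1r in the CD8- sum, so these sums do not stand for the dimmer markers. The part of such cells in the Klf4 difference was not tested.

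The other activators lay under 2-fold. Klf2, which has 1 probe set, read 8.52 in CD8+ and 8.85 in CD8- DCs. It was slightly higher in CD8- DCs, with a difference of -0.32 (1.25-fold), close to the 0.30 spread between probe sets. Klf6, a widely expressed factor with roles in macrophage activation, read 8.76 and 8.78 by its brightest probe set. Its 3 other probe sets above the floor were slightly higher in CD8+ DCs, by 0.17 to 0.26, and the fifth lay under the floor on both arrays. The sign of Klf6 thus depends on the probe set, and all 4 values stay within the 0.30 spread between probe sets. Klf7, known for its role in neurons, read 6.75 and 6.70, and its 4 probe sets, all from 1 source sequence, differed by -0.09 to 0.38.

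Of the CtBP-binding members, Klf3 was slightly higher in CD8+ DCs and Klf12 lay at the floor. Klf3, a repressor with a known role in B cell subsets, read 8.62 in CD8+ and 8.31 in CD8- DCs, a difference of 0.32 (1.25-fold), close to the 0.30 spread between probe sets. All 7 of its probe sets reached the floor and all 7 were higher in CD8+ DCs; their median was 0.32. The 3 dimmest of them, 1441200_at, 1458487_at and 1442920_at, differed by 0.51, 0.68 and 0.66, and the 4 brighter ones by 0.14 to 0.32. All 7 measure the same pair of RNA samples and are no replicates of the populations. Klf12, a repressor of the AP-2 alpha gene, read 3.88 and 3.95 by its brightest probe set, just above the floor, and its other 4 probe sets were under the floor on both arrays.

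Of the 4 Sin3-binding members, Klf13 passed 2-fold, on the CD8- side, and Klf9, Klf10 and Klf11 did not. Klf13, known for the late induction of the chemokine gene Ccl5 in T cells, read 6.69 in CD8+ and 7.90 in CD8- DCs by probe set 1436316_at. Its second probe set, 1432543_a_at, read 5.71 and 7.21, a 2.82-fold difference. Both were lower in CD8+ DCs, by more than the spread between probe sets. The third, 1456030_at, was under the floor on both arrays (3.34 and 3.24) and showed no such difference. Of the measured genes, 7.14% had a larger absolute difference than Klf13.

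Klf10, a gene induced early by TGF-beta, has 1 probe set, which read 5.66 in CD8+ and 6.38 in CD8- DCs, a difference of -0.72 (1.65-fold). Its relative Klf11, also induced by TGF-beta, read 5.80 and 6.10, a difference of -0.29 (1.23-fold). The difference of Klf10 was larger than the spread between probe sets of other genes, and that of Klf11 was not, but neither has a second probe set of its own. Klf9, a gene induced by glucocorticoid and thyroid hormone, read 4.84 and 4.75. Of its 7 probe sets, 5 lay under the floor on both arrays and the other 2 differed by 0.08 and 0.10.

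**Figure D2:**
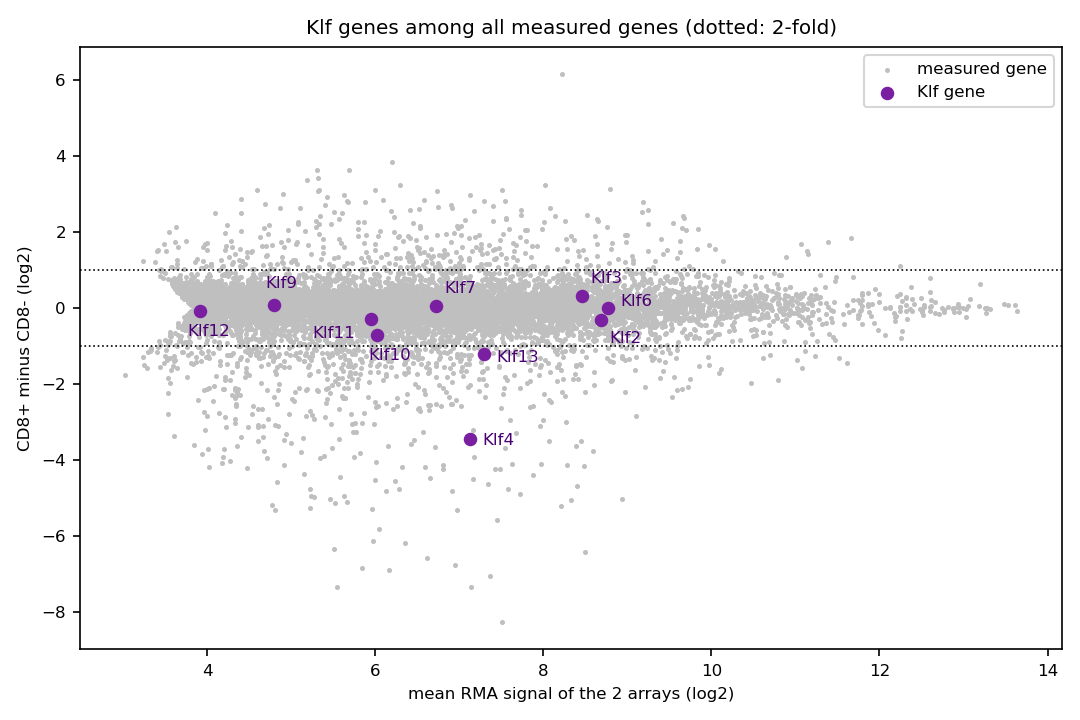
Difference CD8+ minus CD8- (log2) against mean signal of the 2 arrays (log2) for the 11404 measured genes (grey) and the 10 Klf genes (purple), each by its brightest probe set; dotted lines mark 2-fold. Klf4 at -3.45 and Klf13 at -1.21 lie below the lower line, and the other 8 Klf genes lie between -0.72 and 0.32.

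Of 7 further Klf genes, 6 had a single-gene probe set and Klf8 had none. These 6 read near the floor or under it in both populations, and the 3 that reached it were under 2-fold. Klf1, the erythroid factor, read 3.96 in CD8+ and 3.38 in CD8- DCs, and Klf15 read 3.87 and 3.80. The CD8- values of Klf1 and Klf15 were under the floor. Klf16 read 4.21 and 4.19. Klf5, Klf14 and Klf17 were under the floor on both arrays. The related Sp factors, which bind GC boxes through similar fingers, were represented by 7 of 9 genes, of which 6 were measured and none reached 2-fold by its brightest probe set. Sp1 (8.87 and 9.09), Sp3 (8.12 and 8.58) and Sp4 (5.20 and 5.56) had negative differences. The second probe set of Sp4 differed by -1.31, past 2-fold on the CD8- side. Sp5, Sp6 and Sp7 leaned to CD8+ DCs, by 0.12 to 0.25, and Sp8 was under the floor on both arrays. Sp2 and Sp9 had no single-gene probe set.

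Genes of the partners of Klf proteins were mostly level. Of 11 measured genes for co-repressors and co-activators, none reached 2-fold, with a median difference of -0.03. The CtBP gene Ctbp2 was 1.87-fold higher in CD8+ DCs (8.41 and 7.51), in 2 of 2 probe sets, while its paralogue Ctbp1, named after its values were seen, read 8.09 and 8.24. The Sin3 gene Sin3a (6.61 and 6.99), the Sin3 complex gene Sap30 (8.76 and 9.27) and the acetyltransferase gene Crebbp (8.01 and 8.36) were slightly higher in CD8- DCs. Of 6 genes for ubiquitin ligases known to act on Klf proteins, none reached 2-fold (median -0.25). Wwp1 read 4.98 and 5.66, Fbxw7 6.92 and 6.48, Smurf1 5.60 and 5.93, and Vhl differed by 0.33. The 2 probe sets of Smurf1 disagreed in sign (-0.34 and 0.18), and those of Vhl were at 0.0 and 0.33.

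Upstream of Klf2 and Klf4 lies a kinase cascade that ends in Erk5 and the MEF2 factors, beside Foxo1. All 8 genes of this list were measured, with a median of -0.19. Past 2-fold was 1 gene, on the CD8- side, where 5.97% of all measured genes lay. That gene was Mef2c, a MEF2 factor of myeloid and B cells, which differed 4.36-fold (6.65 in CD8+ and 8.78 in CD8- DCs). Its 5 probe sets all lay on the CD8- side, between -2.70 and -2.11. Its paralogue Mef2a went the other way (9.21 and 8.82), in 6 of 6 probe sets, and Mef2d read 6.54 and 7.12. The 3 probe sets of Mef2d differed by -0.58 to 0.0. Map3k3, the first kinase of the cascade, read 7.09 and 7.68.

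Of the 10 textbook target genes of Klf proteins, 9 had a single-gene probe set and 8 were measured, with a median difference of -0.74. By the size of the difference alone, 3 genes were past 2-fold, each on the CD8- side, and Thbd only through a value under the floor. Among all measured genes, 5.97% were past 2-fold on that side and the median difference was 0.03. Ccl5, a target of Klf13 with 1 probe set, read 6.70 in CD8+ and 10.19 in CD8- DCs. Smad7, the inhibitor of TGF-beta signalling that Klf10 and Klf11 bear on, read 4.95 and 6.91, a 3.87-fold difference, and its 2 probe sets differed by -2.45 and -1.95. The thrombomodulin gene Thbd, a target of Klf2 and Klf4, read 2.83 and 4.36, and against the floor its fold was at least 1.43, under the threshold. The cell cycle inhibitor gene Cdkn1a, a target of Klf4 and Klf6, read 5.70 and 6.66, a 1.95-fold difference, but its 2 probe sets were at -0.97 and -0.19. S1pr1, the Klf2 target in T cells, also named after its values were seen, was under the floor on both arrays (3.77 and 3.63). The list holds genes that Klf proteins activate and genes that they repress, and its count does not measure the activity of any factor.

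Several Klf genes are themselves early response or hormone-induced genes, so other genes of these responses were read beside them. All 11 early response genes were measured (median -0.27). Past 2-fold was 1 gene, on the CD8- side, where 5.97% of all measured genes lay. That gene was the stress factor gene Atf3 (8.74 and 10.17). Zfp36 (10.82 and 11.69), Jun (9.92 and 10.76) and Ier3 (7.10 and 6.63) were under 2-fold. Of 6 glucocorticoid-responsive genes none reached 2-fold (median -0.16), with Fkbp5 at 6.63 and 7.28, Sgk1 at 10.21 and 9.66, Per1 at 6.87 and 7.10, and Zbtb16 at 4.51 and 4.32. The part of these responses in the Klf differences was not tested.

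**Figure D3:**
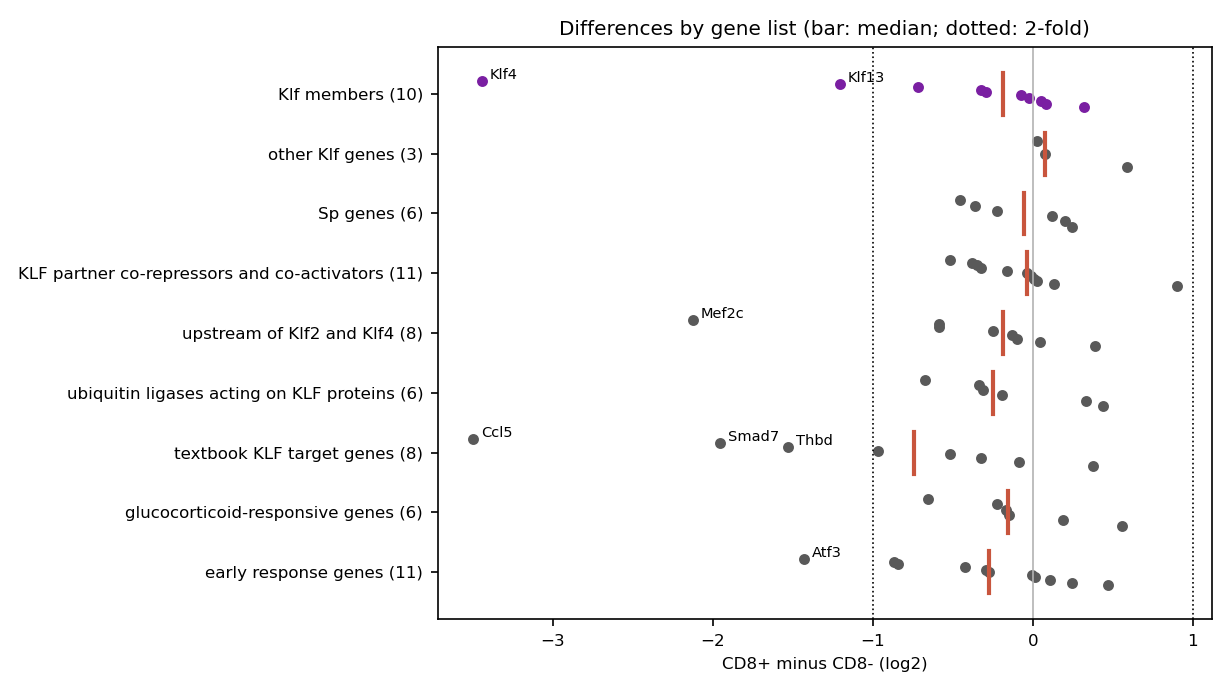
Difference CD8+ minus CD8- (log2) of each measured gene in the Klf list and 8 lists of related genes, with the number of measured genes in brackets; red bars are medians, dotted lines mark 2-fold, and genes past it are named. Beside Klf4 and Klf13, the named genes are Mef2c, Ccl5, Smad7, Thbd and Atf3, all on the CD8- side, and the Thbd value in CD8+ DCs was under the floor.

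The labels of the populations were read against their defining genes. Of 7 CD8+ DC markers with a probe set, 6 passed 2-fold on the CD8+ side (Cd8a, Xcr1, Cadm1, Itgae, Irf8 and Cd207) and Batf3 was at 1.59-fold. Of the CD8- DC markers, 5 of 5 passed it on the CD8- side (Sirpa, Itgam, Irf4, Cd4 and Cd209a). The shares of all measured genes past 2-fold were 3.55% on the CD8+ side and 5.97% on the CD8- side. The general DC genes Itgax, Flt3, Zbtb46, H2-Aa and Cd74 were under 2-fold. Of the T cell markers, Cd3d, Cd3g, Cd247 and Thy1 were under the floor on both arrays and Cd3e read 4.76 and 4.90. The NK cell genes Ncr1, Nkg7, Gzma and Eomes, the neutrophil genes S100a8, S100a9, Mpo and Elane and the erythroid genes Hba-a1 and Alas2 were under the floor on both arrays. Clec9a, Clec4a4, Lck, Klrb1c, Ly6g and Hbb-b1 had no single-gene probe set. Of 4 B cell markers, Cd79a and Pax5 were under the floor on both arrays, Cd79b read 3.28, under the floor, and 6.59 (at least 6.72-fold), and Ms4a1 read 5.74 and 4.99, with a summed linear signal of 88.7 in CD8+ and 152 in CD8- DCs. Of 5 plasmacytoid DC markers, Tcf4 was 4.24-fold higher in CD8- DCs and Ccr9 4.26-fold higher in CD8+ DCs. Siglech read 3.71, under the floor, and 4.04. Ly6d read 4.19 and 3.94, and Pacsin1 read 4.26 and 3.44, with its 2 probe sets at 0.82 and 1.46. By its brightest probe set, the CD8- value of Pacsin1 was under the floor and the fold was at least 1.33. The summed signal of the 5 was 356 in CD8+ and 291 in CD8- DCs, with Ccr9 weighing most in the CD8+ sum and Tcf4 in the CD8- sum. The melanoma genes Mlana, Tyr and Dct were under the floor on both arrays, and Pmel (4.40 and 4.30) and Sox10 (5.21 and 4.85) were low. The sort took B220- cells, a gate set against B220+ B cells and plasmacytoid DCs in both populations, but how far it removed them was not measured. The part of any that remained in the Klf13 difference was not tested.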

How the data were processed

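The submitters' processing notes name RMA for the log2 signal values that the authors deposited for the 2 arrays. RMA includes background correction, quantile normalisation and median polish, which would hide any shift common to most genes. The RMA version is not stated in the labels used. Gene names came from the platform's annotation, with symbols updated by gene identifier for 34754 of 34958 single-gene probe sets (RefSeq, GRCm38.p6). Differences were computed from the deposited log2 values, and no test was made with 1 array per population. Precision is limited by there being 1 array each.

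The members and gene lists were chosen with earlier results of these data known. The naming rule took all Klf and Sp genes, all markers and, from every other list, the 4 measured genes that differed most; Klf, Sp and marker genes without a single-gene probe set are named without values, apart from some markers that are not reported here. The promoter motifs were chosen after the values were seen. Alternatives were array centring, a lowess trend (span 0.3), filters on low values, other choices of probe set and other fold thresholds. Calculations used Python 3.11.15, numpy 2.4.6, pandas 2.3.3 and statsmodels 0.14.6, and were tested on simulated data. Protein sequences were not analysed here.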

Additional observations from a re-analysis of the deposited data

How the results depend on the processing

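Values are compared with the spread between probe sets of a gene (SD 0.30), because there are no replicates. Klf4 stayed past 2-fold in favour of CD8- DCs under every alternative run, and Klf13 under all but the mean of all its probe sets, which includes the 1 under the floor. With that mean, Klf13 was at -0.87 and Klf4 at -3.13, and the count of Klf genes past 2-fold in CD8- DCs was 1. The count was also 1 at a threshold of 4-fold and 3 at 1.5-fold, where Klf10 joined. With the median of the probe sets above the floor, an alternative chosen after seeing the data, Klf4 was at -3.13. With the probe set of largest absolute difference, Klf3 was at 0.68 and Klf7 at 0.38. Klf6 changed sign with the probe set, to 0.19 without probe sets of names ending in _x_at, _s_at or _a_at. The filter at the 75th percentile, a log2 signal of 6.01, left 8 of the 10 Klf genes, without Klf9 and Klf12, and so did the mean of all probe sets. No Klf gene reached 2-fold in favour of CD8+ DCs under any alternative run, and none reached 1.5-fold there by its brightest probe set. Background limits the dim members Klf9 and Klf12. No paired analysis was possible because each population had 1 array.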
